A study of Mus musculus with 12 samples.

Results

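Alveolar macrophages from the lungs of naive mice were compared with alveolar macrophages taken 24 h after reperfusion of a transplanted mouse lung. The members of the comparison were chosen by their labels: the 4 libraries labelled naive and the 4 labelled 24 h, which make 8 of the 12 libraries of the series. The other 4 libraries, labelled 2 h, are set beside them where they show whether a level at 24 h was already reached early. Each library was described by its submitters as polyA RNA from alveolar macrophages of lung tissue of a male mouse aged 14 weeks, with the genotype Cx3cr1gfp/+B6 in every group, the controls included. Cx3cr1gfp/+ is a reporter allele that places green fluorescent protein under the control of 1 copy of the fractalkine receptor gene. The titles of the 2 h and 24 h libraries also hold the word Allo, which no other label explains, and the donor and recipient strains, any treatment and the sorting gate do not appear in those labels. Nothing in the labels says that libraries of a group came from separate mice, so p-values measure the spread between libraries. Whether the macrophages taken after reperfusion came from the donor, the recipient or both, and whether from the strain of the naive mice, is not stated, and such a difference cannot be told apart from the change with time in any comparison below.

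Alveolar macrophages are the resident phagocytes of the air spaces. They clear surfactant lipids, inhaled particles and dying cells, they are maintained by local division rather than by steady supply from blood, and their identity depends on the nuclear receptor Pparg and on signals from the lung. Restoring blood flow to a transplanted lung exposes these cells to oxygen, to dying cells and to recipient leukocytes.

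Of the 43430 genes in the table, 10949 had at least 1 RPKM in at least 4 of the 8 libraries and were tested. RPKM is a read count scaled to the length of the gene model and to the depth of the library. At the edge of this filter, 392 genes reached 1 RPKM in exactly 4 libraries, with a median mean level of 1.06 RPKM, and 331 reached it in exactly 3 and were left out, with a median mean level of 0.890 RPKM. Because a gene could pass through 1 group alone, 129 tested genes passed only through the 24 h libraries and 80 only through the naive ones. For these genes the filter fixed the direction of the difference. Naive libraries held 6112334 to 8795837 reads on genes and 24 h libraries 9129187 to 11997673, so every 24 h library was deeper than every naive one. Pearson correlations of log2 levels across tested genes were 0.981 to 0.988 within a group and 0.934 to 0.953 between naive and 24 h libraries.

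One library, 24 h replicate 4, stood apart from the others of its group in a set of genes chosen after the values were seen. These were the 38 genes whose 2 h mean reached 2 RPKM, whose naive mean was at most 5% of it and whose 2 h libraries all lay above all naive ones. In 24 h replicate 4 their median level was 10.4% of the 2 h mean, against 1.004%, 2.07% and 1.04% in 24 h replicates 1 to 3. It was 0.331% in naive replicate 4, the shallowest of the 12, and 0% in the other 3 naive libraries. Only 3 of these genes were among those tested at 24 h against naive. Without 24 h replicate 4 the fit called 3011 genes higher and 2580 lower, and without both replicates numbered 4 it called 2856 higher and 2463 lower.

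Genes that define alveolar macrophages were abundant in both groups, and most of them were lower at 24 h. Chil3, a chitinase-like lectin that these cells make in bulk, stood at 7923, 7610.5, 8119.6 and 7469 RPKM in naive replicates 1 to 4 and at 8572, 7059.7, 7842 and 7735 RPKM in 24 h replicates 1 to 4. The groups overlapped for Chil3, whose log2 change was 0.00 with an adjusted p of 0.988. Quantile normalisation gave Chil3 a log2 change of -0.39 (adjusted p 1.66e-06). Siglecf, the sialic-acid-binding lectin used to recognise the cell type, stood at 54.5, 60.7, 57.1 and 61.1 RPKM in naive and 27.4, 16.8, 30.9 and 33.2 RPKM in 24 h libraries, a log2 change of -1.12 ± 0.18 with an adjusted p of 9.14e-04. All 4 24 h libraries lay below all 4 naive ones, and 24 h replicate 2 was the lowest. Throughout, log2 changes are differences of group means of log2(RPKM + 1), which understates the change of genes near 1 RPKM, the number after ± beside a log2 change is its standard error, and adjusted p-values are those of limma with Benjamini-Hochberg adjustment over all tested genes.

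Of 19 tested alveolar macrophage markers, 12 fell and 4 rose, where 24.2% of all tested genes fell and 28.2% rose, with a median log2 change of -0.25. Those that fell included the fatty acid binding protein Fabp1 (log2 change -1.70 ± 0.27, adjusted p 7.54e-04), the keratin Krt19 (-1.12 ± 0.05, adjusted p 8.12e-07), the lipid droplet protein Cidec (-0.99 ± 0.11, adjusted p 1.37e-04) and the integrin Itgax (-0.84 ± 0.06, adjusted p 1.25e-05). Pparg itself went from 66.8 ± 4.58 to 54.2 ± 3.97 RPKM (SD, n = 4 each), a log2 change of -0.30 ± 0.07 with an adjusted p of 0.00554. Marco, the scavenger receptor with collagenous structure, and Car4, a membrane carbonic anhydrase, rose instead, together with Ctsk and, less firmly, Fabp4, whose adjusted p of 0.0221 became 0.0569 without naive replicate 1 and 0.0590 without naive replicate 3. Car4 went from 99.8, 90.4, 116 and 92.9 RPKM in naive to 205, 285, 175 and 199.7 RPKM in 24 h libraries, a log2 change of 1.09 ± 0.14 with an adjusted p of 2.76e-04. In these bulk libraries fewer cells of a type and less RNA per cell cannot be told apart.

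Each list of markers of other cell types summed to far less than the alveolar macrophage list, and lymphocyte markers were lower at 24 h. Their 15 listed genes summed to 38.9996 to 69.3 RPKM in naive libraries and 9.99 to 29.5 RPKM at 24 h, most of it from the immunoglobulin light chain gene Igkc, whose adjusted p of 0.0134 became 0.0802 without both replicates numbered 4. All 7 that were tested fell, 3 of them having passed the filter only through the naive libraries. Cd79a, a B cell receptor subunit, stood at 2.97, 2.60, 4.22 and 3.14 RPKM in naive and 0.229, 0.253, 0.865 and 0.451 RPKM in 24 h libraries. Cd79a was tested only because of its naive level, so the filter fixed that its groups did not overlap. Monocyte markers summed to 2.79 to 3.85 RPKM in naive and 1.66 to 2.24 RPKM at 24 h over 9 genes, of which 8 were under 1 RPKM in all 8 libraries and Cd177 was at 0. Neutrophil markers summed to 26.3 to 35.02 RPKM in naive and 43.1 to 49.3 RPKM at 24 h, and the members did not move together. S100a8, a calcium-binding protein of myeloid cells, rose from 10.2 ± 2.54 to 29.8 ± 2.74 RPKM (adjusted p 6.23e-05; SD, n = 4 each), while the granulocyte colony stimulating factor receptor Csf3r fell from 6.51 ± 0.841 to 2.01 ± 0.548 RPKM (adjusted p 6.71e-05).

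The list of interstitial or monocyte-derived macrophage markers split as well. C1qa, C1qb and C1qc, which encode the 3 chains of complement C1q, fell, C1qa from 2.40, 4.37, 3.08 and 4.09 RPKM in naive to 0.481, 0.266, 0.606 and 0.843 RPKM in 24 h libraries (log2 change -1.52 ± 0.16, adjusted p 8.97e-05). C1qa and C1qc passed the filter only through the naive libraries, so they were tested only because of their naive level. Gpnmb, a transmembrane glycoprotein of lysosome-rich macrophages, rose from 124 ± 7.36 to 210.1 ± 33.6 RPKM (SD, n = 4 each), with an adjusted p of 3.78e-04. The lipid receptor Trem2 also rose. Cx3cr1, the gene that carries the reporter allele, was under 1 RPKM in all 8 libraries. Of 12 epithelial markers 4 were tested and 7 were under 1 RPKM in all 8 libraries, and among those tested only Epcam passed, with 42.5 ± 2.25 RPKM in naive and 12.2 ± 2.91 RPKM in 24 h libraries (SD, n = 4 each), while the surfactant gene Sftpc stood at 6.08, 5.02, 8.81 and 8.95 RPKM in naive and 6.53, 9.76, 3.53 and 3.41 RPKM in 24 h libraries. Endothelial and stromal markers summed to 5.26 to 5.63 RPKM in naive and 3.79 to 4.28 RPKM at 24 h, dendritic cell markers to 5.57 to 6.68 and 4.29 to 8.32 RPKM, and red cell and platelet markers to 1.62 to 4.41 and 0.727 to 2.48 RPKM.

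**Figure D1:**
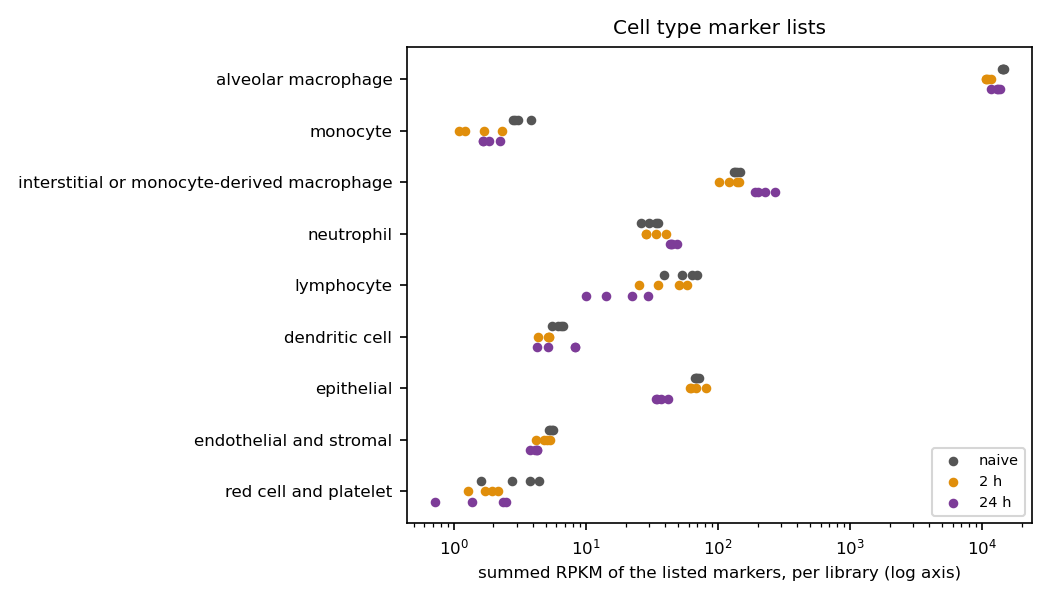
Summed RPKM of each cell type marker list in each library, on a log axis, with naive, 2 h and 24 h libraries as separate points. Alveolar macrophage markers summed to 14288.8 to 14612.7 RPKM in naive and 11653.8 to 13645.5 RPKM in 24 h libraries, far above every other list. The sums of lymphocyte, epithelial, monocyte, and endothelial and stromal markers were lower in every 24 h library than in every naive one. Those of neutrophil and of interstitial or monocyte-derived macrophage markers were higher, although the members of neither list moved together. Gpnmb made up most of the interstitial or monocyte-derived sum, and of 6 tested members 3 rose and 3 fell. S100a8 made up most of the neutrophil sum at 24 h, and of 5 tested members 2 rose and 2 fell. Among the tested epithelial markers only Epcam passed the test.

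At 24 h the macrophages differed from naive ones in 52.4% of the tested genes, with nearly equal numbers moving each way. The fit called 3092 genes higher (28.2% of those tested) and 2645 lower (24.2%), and these shares are the background for every count of list members below. Most of the calls were small. A change of at least 2-fold was called for 392 genes higher (3.58%) and 163 lower (1.49%). The median log2 change over all tested genes was 0.00524. Of the tested genes, 26.8% had all 4 24 h libraries above all 4 naive ones, and 22.6% had them all below. Of the 51 lists that are not marker lists, 16 had 0 members lower and 8 had 0 higher by limma; at an unadjusted p under 0.05, 1 member of the former (in the serine and one-carbon list) and 0 of the latter moved that way, and the voom method on recovered reads called 1 in each.

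**Figure D2:**
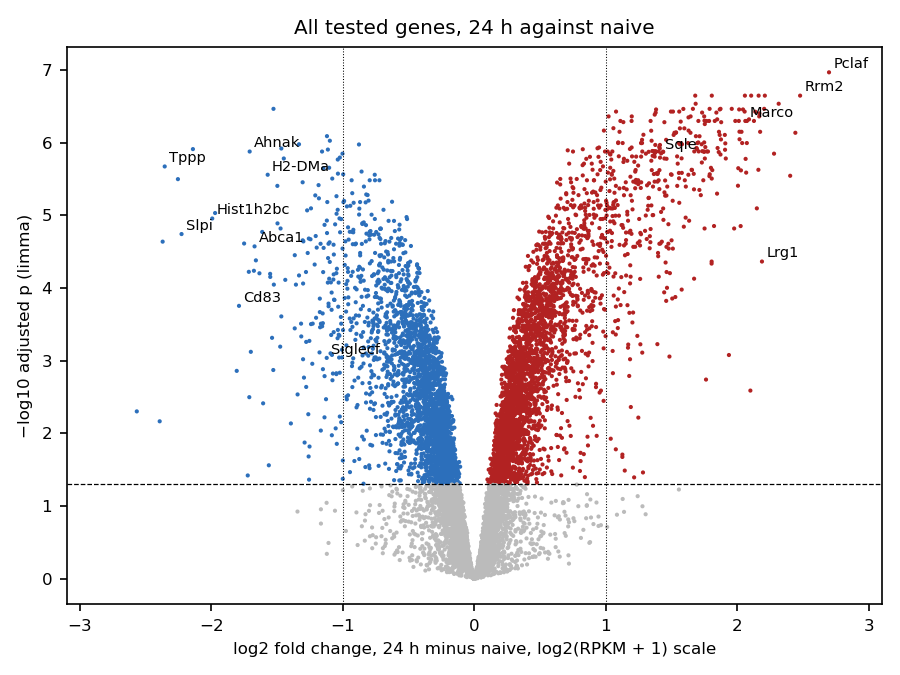
Log2 change at 24 h against naive (x axis) and −log10 of the limma adjusted p (y axis) for all 10949 tested genes, red where higher and blue where lower at an adjusted p under 0.05 (dashed line), with dotted lines at 2-fold. The 392 genes called at least 2-fold higher lie right of the right dotted line and the 163 called at least 2-fold lower left of the other, and Pclaf lies at the far right.

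The largest rises were those of genes that copy DNA and divide the cell. Before a cell can enter S phase, origins of replication are licensed by loading the Mcm2 to Mcm7 helicase, which Cdc45 and the GINS complex then activate. Among the 10 largest rises by the naming rule (Pclaf, Rrm2, Shcbp1, Cdkn3, Mcm5, Plk1, Top2a, Uhrf1, Lrg1 and Pbk), only Lrg1, a secreted leucine-rich glycoprotein of the acute phase, is not a cell cycle gene. Lrg1 stood at 6.31, 7.09, 5.64 and 6.18 RPKM in naive replicates 1 to 4 and at 29.4, 50.7, 32.2 and 22.2 RPKM in 24 h replicates 1 to 4, a log2 change of 2.19 ± 0.21 with an adjusted p of 4.32e-05. The 24 h libraries all lay above the naive ones, and 24 h replicate 2 was the highest.

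Of 24 licensing genes, 22 rose and 0 fell, with a median log2 change of 1.28 and 5 of them tested only because of their 24 h level. Mcm7, a subunit of the helicase ring, stood at 6.72, 6.52, 6.68 and 6.28 RPKM in naive and 22.1, 22.4, 25.5 and 23.2 RPKM in 24 h libraries, a log2 change of 1.68 ± 0.05 with an adjusted p of 2.91e-07. Gins1, a GINS subunit, stood at 1.83, 1.79, 2.40 and 2.14 RPKM in naive and 10.7, 11.2, 12.2 and 12.2 RPKM in 24 h libraries, a log2 change of 2.06 ± 0.08 with an adjusted p of 3.73e-07. For both genes the spread within a group was a small part of the gap between groups. At 2 h their means were 4.54 and 1.92 RPKM, so the 2 h libraries stood near or below the naive level.

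The lists of enzymes that work behind the helicase moved in the same direction. All 31 tested fork genes rose (median log2 change 1.20), among them the ligase Lig1 that joins Okazaki fragments (1.28 ± 0.0914 to 6.30 ± 0.204 RPKM, SD, n = 4 each), the primase subunit Prim1 (2.07 ± 0.148 to 7.65 ± 0.372 RPKM) and the chromatin assembly factor Chaf1a (6.34 ± 0.638 to 27.5 ± 1.16 RPKM). Their adjusted p-values were 2.25e-07, 3.73e-07 and 3.42e-07. Among the fork genes, 1 passed the filter only through the 24 h libraries. Of 25 nucleotide synthesis genes, 24 rose and 0 fell, 1 of the tested ones having passed only through the 24 h libraries. Of 27 repair and checkpoint genes 25 rose and 0 fell, 7 of the tested ones having passed the filter only through the 24 h libraries. The helicase Blm rose by 1.35 on the log2 scale.

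Mitotic genes moved further than S phase genes by their medians. Of 42 spindle and cytokinesis genes 41 rose and 1 fell (median log2 change 1.68), and of 34 kinetochore, cohesin and condensin genes 33 rose and 0 fell (median 1.57). In the first list 2 genes, and in the second 1, passed the filter only through the 24 h libraries. Top2a, the topoisomerase that untangles sister chromosomes, stood at 11.9, 11.3, 11.8 and 10.5 RPKM in naive and 55.6, 57.998, 59.7 and 51.5 RPKM in 24 h libraries, a log2 change of 2.21 ± 0.06 with an adjusted p of 2.25e-07. Kif15, a spindle motor, stood at 4.58, 3.98, 3.996 and 4.52 RPKM in naive and 20.05, 21.8, 23.5 and 21.3 RPKM in 24 h libraries, a log2 change of 2.11 ± 0.06 with an adjusted p of 2.25e-07. Neither gene's groups overlapped. The outer kinetochore subunit Nuf2 and the condensin subunit Ncapg2 rose by 1.81 and 1.87 on the log2 scale.

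Of 26 cyclins, cyclin-dependent kinases and E2F activators, 23 rose and 1 fell, 2 of the tested ones having passed the filter only through the 24 h libraries. Cdk1, the kinase that drives entry into mitosis, stood at 3.09, 2.73, 3.48 and 2.43 RPKM in naive and 15.6, 16.4, 15.6 and 14.3 RPKM in 24 h libraries, a log2 change of 2.07 ± 0.08 with an adjusted p of 5.02e-07. The S phase cyclins Ccne1 and Ccna2 rose by 1.87 and 2.02 on the log2 scale. Genes that restrain the cycle did not move as 1 block: of 26, 6 rose and 11 fell. Those that rose included Wee1, the kinase that holds Cdk1 inactive (1.44 ± 0.07, adjusted p 1.34e-06), and the inhibitors Cdkn2c (1.80 ± 0.10, adjusted p 2.22e-06) and Cdkn2d (1.74 ± 0.11, adjusted p 3.29e-06). The antiproliferative genes Btg1 and Btg2 fell, Btg2 from 85.8, 93.8, 94.5 and 127 RPKM in naive to 40.96, 25.9, 37.5 and 30.2 RPKM in 24 h libraries (adjusted p 7.02e-05). Without both replicates numbered 4, 7 of the 26 were called lower.

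The receptors and regulators that govern macrophage growth moved the other way more often. Of 14 tested MAF, MYC and colony stimulating factor genes, 9 fell and 4 rose. Csf1r, the receptor for macrophage colony stimulating factor, stood at 39.6, 39.4, 39.2 and 42.5 RPKM in naive and 24.5, 23.6, 22.2 and 23.3 RPKM in 24 h libraries, a log2 change of -0.76 ± 0.05 with an adjusted p of 3.29e-06. Myc stood at 6.06, 4.90, 6.40 and 4.96 RPKM in naive and 3.09, 3.04, 3.66 and 3.19 RPKM in 24 h libraries, a log2 change of -0.63 ± 0.09 with an adjusted p of 4.10e-04. The groups did not overlap for either gene. Mxd3, a MAX partner expressed in cycling cells, rose by 1.24 on the log2 scale, and its relative Mxd4 fell by 0.92.

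Promoter sequences of the cell cycle genes are shown because many members of these lists moved together. Windows of 250 bases before the annotated start came from RefSeq on GRCm38.p6, the mm10 assembly, and 855 of the 1081 tested list members had one. An E2F-like match was any of TTTCGCGC, TTTGGCGC and TTTCCCGC on either strand. It was found in 8 of 19 listed licensing genes with a window, 2 of 26 fork genes and 1 of 36 spindle genes, against 3.78% of the 7915 tested genes with a window and 1.78% of all 27025. The share in spindle genes was 2.78%, below that of tested genes. The cell cycle homology region, TTTGAA on either strand, was found in 14 of the 36 spindle genes and 4 of the 19 licensing genes, against 12.62% of tested genes with a window and 18.26% of all. Among lists that did not rise as a whole, the TTTGAA count varied. It was found in 5 of 15 cell death regulators, 5 of 16 scavenger and C-type lectin receptors and 0 of 16 Toll-like receptors and adaptors. CCAAT on either strand was found in 24 of the spindle genes, against 40.44% of tested genes with a window and 37.49% of all. These are matches of letters in a window and no evidence of binding. The stretch of the Mcm5 promoter on chr8:75109341-75109506 (plus strand) carries E2F-like and CCAAT matches, and that of Cdk1 on chr10:69352913-69353135 (minus strand) carries E2F-like, CCAAT and TTTGAA matches, all shown in capitals and written 5′ to 3′ toward the start site.
Mcm5: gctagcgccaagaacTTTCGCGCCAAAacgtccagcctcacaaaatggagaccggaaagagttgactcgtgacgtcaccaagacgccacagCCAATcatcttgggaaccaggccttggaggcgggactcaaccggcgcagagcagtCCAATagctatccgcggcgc
Cdk1: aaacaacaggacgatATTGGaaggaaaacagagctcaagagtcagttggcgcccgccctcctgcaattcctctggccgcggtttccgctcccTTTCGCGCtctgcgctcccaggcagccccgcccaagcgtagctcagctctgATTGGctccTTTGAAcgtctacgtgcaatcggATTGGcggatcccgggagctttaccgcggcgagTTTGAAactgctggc

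**Figure D3:**
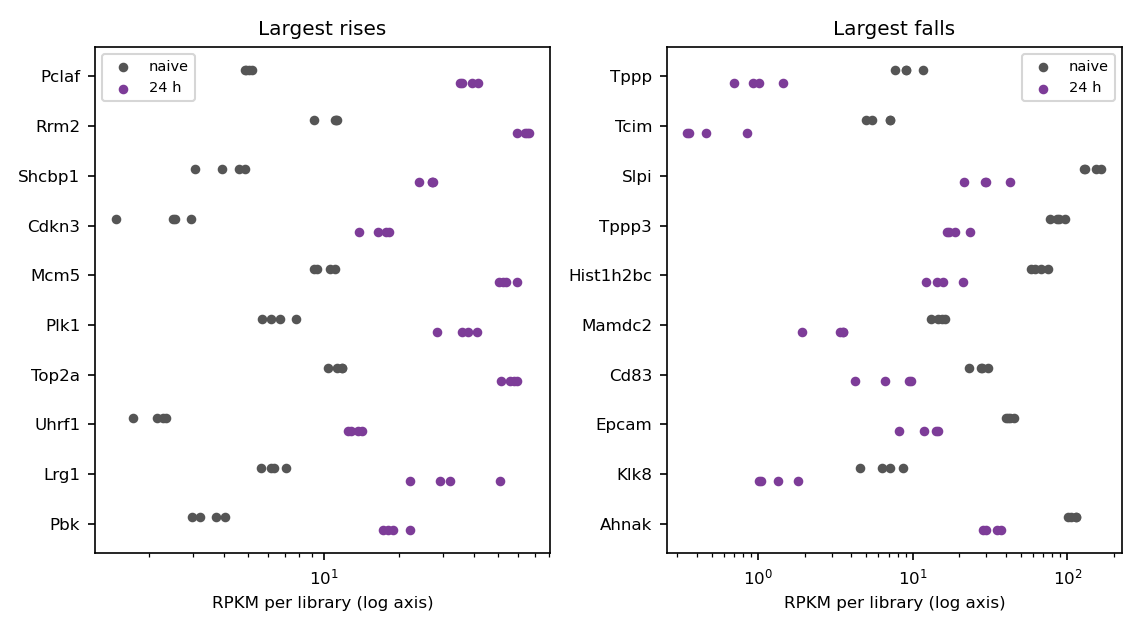
RPKM in each naive and 24 h library (log axis) for the 10 largest rises and the 10 largest falls by the naming rule. For each of the 20 genes the 4 naive and 4 24 h points do not overlap, as the rule requires.

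Chromatin, cytoskeleton and nuclear transport genes rose beside the cell cycle. Of 18 genes of repressive chromatin and chromatin architecture, 14 rose and 1 fell. Uhrf1, which guides the maintenance methylation of newly copied DNA, stood at 2.33, 2.16, 2.28 and 1.72 RPKM in naive and 12.9, 14.3, 13.7 and 12.5 RPKM in 24 h libraries, a log2 change of 2.20 ± 0.07 with an adjusted p of 3.42e-07. Hmgb2, an abundant DNA-bending protein, rose from 27.7 ± 1.57 to 80.7 ± 4.06 RPKM (adjusted p 3.73e-07; SD, n = 4 each). Of 13 tubulin and stathmin genes 9 rose and 1 fell. Stmn1, which destabilises microtubules, rose from 23.8 ± 2.56 to 89.4 ± 7.001 RPKM (adjusted p 7.81e-07), and Tubb5, a beta-tubulin, from 125 ± 7.34 to 302 ± 19.4 RPKM (adjusted p 1.01e-06), although reads of near-identical tubulin copies may have been split in counting. Of 20 nuclear transport genes 16 rose and 0 fell. The GTPase Ran and its partner Ranbp1 rose by 1.33 and 1.28 on the log2 scale.

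The machinery that makes proteins rose by smaller amounts. Of 35 ribosome biogenesis genes 25 rose and 0 fell (median log2 change 0.32). Nhp2, a subunit of the particles that modify ribosomal RNA, stood at 19.1, 14.7, 18.6 and 16.8 RPKM in naive and 33.9, 37.3, 33.6 and 31.7 RPKM in 24 h libraries, a log2 change of 0.95 ± 0.09 with an adjusted p of 3.10e-05. Nolc1 and Rrp12 also rose against naive, but their 24 h levels lay near those at 2 h, with log2 changes of -0.10 and -0.00 at 24 h against 2 h and adjusted p-values of 0.554 and 0.982. In this list 7 members were higher and 4 lower at 24 h than at 2 h, against 32.4% and 20.8% of all tested genes. The 24 h libraries enter both comparisons. Of 20 aminoacyl-tRNA synthetases 17 rose and 0 fell, led by Vars (0.97 ± 0.07, adjusted p 1.12e-05) and Hars (0.71 ± 0.05, adjusted p 8.11e-06). Cytosolic ribosomal proteins changed least: 33 of 77 rose and 4 fell, with changes between -0.40 and 0.59 on the log2 scale, and with their many processed copies elsewhere in the genome these values are uncertain. Their count of rises was 20 or 21 without 24 h replicate 1 or naive replicates 1 or 2, and their count of falls was 7 without 24 h replicate 4.

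Mitochondrial genes encoded in the nucleus rose, while transcripts of the mitochondrial genome mostly did not pass the test. Of 75 mitochondrial ribosomal proteins 56 rose and 1 fell (0 without 24 h replicates 3 or 4 or naive replicate 2; median log2 change 0.35), and of 20 import genes 14 rose and 0 fell. Timm50, a subunit of the inner membrane translocase, stood at 7.23, 7.45, 7.58 and 7.80 RPKM in naive and 14.3, 16.4, 15.3 and 14.1 RPKM in 24 h libraries, a log2 change of 0.91 ± 0.06 with an adjusted p of 3.29e-06. Of 25 tricarboxylic acid cycle genes 24 rose and 0 fell. In this list and in the import list, 1 tested gene each passed the filter only through the 24 h libraries. Idh3a, the catalytic subunit of NAD-dependent isocitrate dehydrogenase, stood at 16.7, 18.001, 19.4 and 16.4 RPKM in naive and 36.8, 40.97, 41.02 and 40.4 RPKM in 24 h libraries, a log2 change of 1.13 ± 0.06 with an adjusted p of 1.84e-06. The groups were separate for both genes. Of 13 genes of the mitochondrial genome 3 rose and 0 fell, and mt-Co1, a cytochrome oxidase subunit, stood at 2226, 2306, 2326 and 2566 RPKM in naive and 2435, 2721, 2573 and 2841 RPKM in 24 h libraries with overlapping groups and an adjusted p of 0.0519. That p was 0.0292 without 24 h replicate 1 and 0.0191 without naive replicate 4, and without naive replicate 4 the number of mitochondrial genes called higher was 6. The adjusted p of mt-Co1 was 0.0136 with the replicate number as a block, which also called 6 of these genes higher, 0.0258 over all 12 libraries and 0.0289 by voom on recovered reads.

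Serine synthesis and folate-linked one-carbon metabolism rose with them. These pathways supply the carbon units for purines and thymidylate. Psat1, the second enzyme of serine synthesis, stood at 1.66, 1.56, 2.09 and 2.30 RPKM in naive and 8.85, 8.92, 8.27 and 8.26 RPKM in 24 h libraries, a log2 change of 1.73 ± 0.08 with an adjusted p of 1.05e-06. Of 8 tested members 6 rose and 0 fell, including the mitochondrial folate enzyme Mthfd2 (1.09 ± 0.08, adjusted p 7.22e-06). Of 7 pentose phosphate genes 6 rose and 0 fell. The transketolase Tkt rose from a naive 59.9 ± 0.961 to 86.1 ± 3.42 RPKM at 24 h (adjusted p 1.71e-05; SD, n = 4 each). After quantile normalisation the pentose phosphate counts were 4 higher and 1 lower.

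Sterol synthesis and sterol export moved in opposite directions. When membrane cholesterol is low, the transcription factor Srebf2 turns on the enzymes that make cholesterol. When sterols accumulate, liver X receptors turn on export pumps and Mylip, which marks the LDL receptor for degradation. All 20 tested synthesis genes rose, with changes between 0.41 and 1.75 on the log2 scale, and 1 of them passed the filter only through the 24 h libraries. Cyp51, the lanosterol demethylase, stood at 13.6, 12.1, 12.8 and 12.5 RPKM in naive and 29.3, 35.3, 29.9 and 29.5 RPKM in 24 h libraries, a log2 change of 1.22 ± 0.07 with an adjusted p of 1.83e-06. Of 13 liver X receptor and efflux genes 9 fell and 0 rose (median log2 change -0.67). By library, their median difference from the naive mean was -0.61, -1.25, -0.46 and -0.38 on the log2 scale in 24 h replicates 1 to 4, with replicate 2 apart from the rest, and 9 were also called lower without it. Mylip stood at 28.5, 30.02, 30.1 and 28.8 RPKM in naive and 10.5, 8.26, 8.67 and 12.9 RPKM in 24 h libraries, a log2 change of -1.47 ± 0.12 with an adjusted p of 1.52e-05. Both genes had separate groups, and the 2 h mean was 10.5 RPKM for Cyp51 and 23.5 RPKM for Mylip.

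Fatty acid genes moved with the sterol genes in part. Of 18 genes of fatty acid synthesis and LDL uptake, 12 rose and 2 fell (1 without 24 h replicates 1, 2 or 4 or naive replicates 1, 2 or 3). Fads2, a fatty acid desaturase, stood at 0.603, 0.0836, 0.620 and 0.868 RPKM in naive and 4.75, 5.20, 3.97 and 3.41 RPKM in 24 h libraries, a log2 change of 1.80 ± 0.17 with an adjusted p of 4.61e-05. Fads2 was tested only because of its 24 h level. Fads1, which acts after it, rose from 2.80 ± 0.566 to 8.27 ± 0.471 RPKM (adjusted p 1.63e-05; SD, n = 4 each), and the sterol carrier Stard4 from 4.87 ± 0.515 to 10.9 ± 0.420 RPKM (adjusted p 4.62e-06). Of 22 fatty acid oxidation genes 11 rose and 3 fell. The acyl-CoA dehydrogenases split: Acadl, for long chains, had a log2 change of 0.65 ± 0.05 (adjusted p 8.04e-06), and Acadm, for medium chains, fell by 0.76 (adjusted p 1.12e-05).

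Promoters of sterol genes were searched for CCAAT and for the sterol element. The counts for these sequences cannot be ranked against each other, because CCAAT is shorter and far more common among tested genes. CCAAT on either strand was found in 14 of 15 sterol synthesis genes with a window, against 40.44% of tested genes. TCACCCCAC, 1 form of the sterol regulatory element, was found on either strand in 1 of them, Hmgcs1, and in 0.62% of tested genes and 0.56% of all. Among lists that did not rise as a whole, the CCAAT count varied. It was found in 18 of 21 endoplasmic reticulum folding genes, 7 of 7 class II genes and 1 of 10 Fc and complement receptor genes. Hmgcs1 encodes the enzyme that makes HMG-CoA for sterol synthesis. Its promoter stretch on chr13:119690101-119690325 (plus strand) is shown with the CCAAT matches, which read ATTGG on this strand, and TCACCCCAC in capitals.
Hmgcs1: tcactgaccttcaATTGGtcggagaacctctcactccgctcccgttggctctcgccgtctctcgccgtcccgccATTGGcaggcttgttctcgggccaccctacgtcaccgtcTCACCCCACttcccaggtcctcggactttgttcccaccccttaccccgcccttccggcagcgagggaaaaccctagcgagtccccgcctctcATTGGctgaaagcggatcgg

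The proteasome rose as a whole, and the endoplasmic reticulum stress genes did not. All 31 tested proteasome subunits rose, with a median log2 change of 0.56. Psma6, an alpha ring subunit, stood at 29.9, 31.5, 32.1 and 31.5 RPKM in naive and 56.1, 65.3, 60.4 and 56.9 RPKM in 24 h libraries, a log2 change of 0.91 ± 0.06 with an adjusted p of 3.29e-06. Of 20 chaperonins and heat shock proteins 12 rose and 0 fell (4 fell without 24 h replicate 2). Hspa9, the mitochondrial Hsp70, was among those that rose (0.58 ± 0.07, adjusted p 1.63e-04). Of 21 endoplasmic reticulum folding and unfolded protein response genes 3 rose and 5 fell, and with each library left out in turn the counts ranged from 1 to 5 higher and from 2 to 6 lower. The rises numbered 1 without 24 h replicate 1 or naive replicates 1, 3 or 4 and 5 without 24 h replicate 3, and the falls 2 without 24 h replicates 3 or 4 or naive replicates 2 or 3 and 3 without naive replicate 4. Xbp1 and Ddit3, transcription factors of that response, fell by 0.49 and 0.50 on the log2 scale, and the chaperone cofactor Sdf2l1 rose by 0.58 with an adjusted p of 0.0159.

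Antigen presentation through MHC class II fell. Class II molecules are alpha and beta chains that are assembled on the invariant chain Cd74 and loaded with peptide by the DM heterodimer, and their genes are switched on by the coactivator Ciita. All 7 tested members fell, with a median log2 change of -1.07. H2-DMa, the DM alpha chain, stood at 117, 126, 120.4 and 123 RPKM in naive and 41.9, 32.7, 46.3 and 41.2 RPKM in 24 h libraries, a log2 change of -1.57 ± 0.09 with an adjusted p of 2.76e-06. H2-Aa, an alpha chain, stood at 34.4, 55.3, 43.1 and 60.5 RPKM in naive and 15.3, 22.4, 27.3 and 20.2 RPKM in 24 h libraries, a log2 change of -1.14 ± 0.21 with an adjusted p of 0.00163. Neither gene's groups overlapped, although the naive libraries spread widely for H2-Aa.

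The remaining class II genes fell by 0.53 to 1.09 on the log2 scale. These were H2-DMb1 (adjusted p 0.00126), H2-Eb1 (-0.79 ± 0.17, adjusted p 0.00457), H2-Ab1 (-1.05 ± 0.19, adjusted p 0.00153), H2-DMb2 (-1.07 ± 0.12, adjusted p 1.44e-04) and Cd74 (adjusted p 7.92e-04). Copies of H2 genes are alike, so reads may be shared between them. The pseudogene H2-Ea-ps, described at the end, was near 0 in every naive library and higher in every 24 h library. Donor and recipient strains are not stated, and whether a difference of strain affected the values of class II or class I genes was not tested. Ciita stood at 2.23, 2.50, 2.75 and 3.14 RPKM in naive and 0.761, 1.51, 1.22 and 1.10 RPKM in 24 h libraries, a log2 change of -0.77 ± 0.12 with an adjusted p of 6.85e-04. The other regulators of class II promoters changed less: Nfyb rose by 0.37 on the log2 scale, Creb1 and Rfx1 fell by 0.26 and 0.34, and Rfxank (0.11), Nfyc (0.12), Rfxap (0.12) and Nfya (-0.02) did not pass the test. Rfx1 missed the threshold without 24 h replicates 3 or 4 or naive replicates 1, 2 or 3, with adjusted p-values of 0.0715 to 0.104, and Rfxank passed it without naive replicate 1 (adjusted p 0.0342). B cells and dendritic cells carry much class II, and the lymphocyte markers summed to 38.9996 to 69.3 RPKM in naive and 9.99 to 29.5 RPKM in 24 h libraries. Their part in the class II fall was not tested.

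Some class II promoters hold the letters searched for the Y and X2 boxes, elements known from class II genes, and 2 of them are shown. The Y box was searched as CTGATTGG, which contains CCAAT read on the other strand, and the X2 box as TGACGTCA, each on either strand. CCAAT was found in 7 of 7 class II genes with a window. CTGATTGG was found in 3 of them, against 6.49% of tested genes with a window and 4.43% of all, and TGACGTCA in 1 of them, against 3.23% of tested genes with a window and 1.77% of all. Other lists held these letters too: CTGATTGG was found in 10 of 21 endoplasmic reticulum folding genes and 6 of 15 sterol synthesis genes, and TGACGTCA in 3 of 19 licensing genes. The stretch of H2-Aa on chr17:34287852-34287912 (minus strand) carries both, and that of H2-Eb1 on chr17:34305790-34305851 (plus strand) carries CTGATTGG and a further CCAAT, all in capitals.
H2-Aa: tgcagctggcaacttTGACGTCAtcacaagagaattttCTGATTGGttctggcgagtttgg
H2-Eb1: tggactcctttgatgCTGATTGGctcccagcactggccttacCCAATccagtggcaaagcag

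Class I genes and ligands seen by T cells were mostly lower too. Of 14 class I and peptide loading genes 8 fell and 2 rose (median log2 change -0.24), with 1 rise left without 24 h replicates 1, 3 or 4 or naive replicates 1, 3 or 4. B2m, the light chain of every class I molecule, went from 1372 ± 97.5 to 944 ± 22.3 RPKM (SD, n = 4 each, log2 change -0.54 ± 0.05, adjusted p 6.49e-05). Of 11 costimulatory and inhibitory ligands 9 fell and 2 rose, the rises numbering 0 or 1 when any 1 library was left out. Cd83, a surface protein of activated antigen presenting cells, stood at 23.02, 28.1, 30.9 and 27.6 RPKM in naive and 6.57, 4.22, 9.80 and 9.46 RPKM in 24 h libraries, a log2 change of -1.79 ± 0.22 with an adjusted p of 1.76e-04. Cd80, a ligand of Cd28, stood at 11.4, 9.71, 9.50 and 11.3 RPKM in naive and 6.42, 6.29, 6.05 and 7.28 RPKM in 24 h libraries, a log2 change of -0.61 ± 0.08 with an adjusted p of 2.11e-04. Both were lower in every 24 h library.

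Receptors for microbes and danger signals fell in larger numbers than they rose, and Marco was the exception in size. Of 20 Toll-like receptors and adaptors 11 fell and 1 rose, and that rise was lost without 24 h replicates 3 or 4 or naive replicates 1, 2 or 4. Cd14, the co-receptor for bacterial lipopolysaccharide, stood at 89.5, 115, 111 and 137 RPKM in naive and 42.9, 40.1, 49.9 and 39.02 RPKM in 24 h libraries, a log2 change of -1.37 ± 0.13 with an adjusted p of 3.53e-05. The endosomal RNA receptors Tlr7 and Tlr8 fell by 0.86 and 0.78 on the log2 scale. Marco stood at 106, 92.3, 81.4 and 100.4 RPKM in naive and 381, 422, 371 and 418 RPKM in 24 h libraries, a log2 change of 2.06 ± 0.08 with an adjusted p of 5.02e-07, and its 2 h mean was 69.5 RPKM. Every 24 h library lay far above every naive one. Of the 18 scavenger and C-type lectin receptors tested with it, 5 rose and 8 fell, 1 of the tested ones having passed the filter only through the naive libraries. The HDL receptor Scarb1 rose by 0.75 on the log2 scale, and the lectin Clec2d fell by 0.85.

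Fc receptors, integrins and receptors for chemoattractants also fell more often than they rose. Of 9 Fc and complement receptors 7 fell and 0 rose, led by Fcgr2b, the inhibitory IgG receptor (-0.92 ± 0.07, adjusted p 1.58e-05), and Fcgr3 (-0.68 ± 0.06, adjusted p 2.42e-05). Of 10 integrins 6 fell and 1 rose. Itgal, the alpha chain of LFA-1, stood at 36.1, 35.8, 35.8 and 33.98 RPKM in naive and 19.5, 17.8, 19.3 and 20.9 RPKM in 24 h libraries, a log2 change of -0.84 ± 0.05 with an adjusted p of 4.01e-06. The 1 integrin that rose was Itga6, a laminin receptor chain (0.61 ± 0.07, adjusted p 1.34e-04). Of 12 chemoattractant receptors 7 fell and 1 rose, including Fpr1, a receptor for formyl peptides of bacteria and mitochondria. Fpr1 stood at 292, 270.4, 259 and 297 RPKM in naive and 148, 109, 139.8 and 136 RPKM in 24 h libraries (log2 change -1.07 ± 0.09, adjusted p 2.53e-05), and its 2 h mean was 99.997 RPKM.

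Interferon response genes were lower or did not pass the test, and limma called none higher. Of 22 tested out of 32 listed, 13 fell (median log2 change -0.24). The voom method on recovered reads called 1 higher and 14 lower. Ifngr1, a chain of the interferon-gamma receptor, stood at 45.8, 51.1, 46.7 and 48.3 RPKM in naive and 28.2, 25.6, 29.99 and 33.3 RPKM in 24 h libraries, a log2 change of -0.70 ± 0.08 with an adjusted p of 1.02e-04. The transcription factors Irf5 and Irf3 fell by 0.56 and 0.28 on the log2 scale.

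Cytokine and immediate early genes were lower at 24 h than in naive cells, and most chemokines were lower than at 2 h. Immediate early genes are switched on within minutes of a stimulus and also when cells are dissociated from tissue. Of 21 tested, 14 fell and 1 rose against naive (0 without 24 h replicate 4 or naive replicates 1, 2 or 4), and 17 were lower and 1 higher at 24 h than at 2 h. Jund stood at 99.3, 115, 96.1 and 101 RPKM in naive and 52.3, 54.1, 42.5 and 40.2 RPKM in 24 h libraries, a log2 change of -1.11 ± 0.10 with an adjusted p of 3.87e-05. Egr2 stood at 11.2, 10.01, 12.02 and 12.9 RPKM in naive and 5.54, 4.05, 5.51 and 6.58 RPKM in 24 h libraries, a log2 change of -0.97 ± 0.12 with an adjusted p of 2.11e-04. Both had separate groups. In a fit over all 12 libraries, 7 immediate early genes were called lower against naive. The time from tissue to lysis is not given in the labels, and its part in these values was not tested.

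Of 10 cytokines and growth factors 7 fell and 0 rose, 1 of the tested ones having passed the filter only through the naive libraries. Il1b stood at 4.60, 5.31, 5.07 and 7.02 RPKM in naive and 1.27, 1.26, 1.34 and 2.71 RPKM in 24 h libraries, a log2 change of -1.32 ± 0.18 with an adjusted p of 3.09e-04, and 24 h replicate 4 was the highest of its group. At 2 h its mean was 12.9 RPKM, and the log2 change at 24 h against 2 h was -2.33 with an adjusted p of 2.55e-05. Hgf, a growth factor for epithelium, had a log2 change of -1.06 ± 0.12 (adjusted p 1.46e-04). Of 11 chemokines 3 fell and 1 rose against naive, while 10 were lower and 0 higher at 24 h than at 2 h. Cxcl3, which attracts neutrophils, stood at 3.61, 5.12, 3.71 and 4.38 RPKM in naive and 0.909, 0.823, 0.728 and 0.868 RPKM in 24 h libraries, a log2 change of -1.50 ± 0.10 with an adjusted p of 3.93e-06. Cxcl3 was tested only because of its naive level. Its relative Cxcl2 was more variable, at 18.6, 33.3, 24.6 and 39.9 RPKM in naive and 18.3, 14.7, 14.04 and 7.48 RPKM in 24 h libraries, with an adjusted p of 0.0139 that was 0.107 in a fit over all 12 libraries. Cxcl14 was the 1 chemokine that rose, by 0.49 on the log2 scale, and it lay below its 2 h mean of 15.1 RPKM.

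Kruppel-like factors and TGF-beta signalling genes fell more often than they rose, and most glucocorticoid-induced genes did not pass the test. Of 10 Kruppel-like factors 6 fell and 0 rose, with Klf6 going from 107 ± 6.36 to 68.9 ± 2.62 RPKM (adjusted p 2.05e-05; SD, n = 4 each). Of 10 genes of TGF-beta signalling, on which alveolar macrophages depend for their development, 9 fell and 0 rose. Acvrl1, a type I receptor of that family, stood at 4.67, 3.94, 4.23 and 4.73 RPKM in naive and 2.35, 1.76, 2.41 and 2.36 RPKM in 24 h libraries, a log2 change of -0.75 ± 0.08 with an adjusted p of 1.17e-04. Of 10 glucocorticoid-induced genes 1 rose and 3 fell. The one that rose was Fkbp5, a chaperone of the glucocorticoid receptor, at 10.3, 16.1, 10.3 and 7.12 RPKM in naive and 22.2, 22.7, 24.7 and 22.2 RPKM in 24 h libraries (log2 change 1.05 ± 0.19, adjusted p 0.00148). Mt2, a metallothionein, had a 2 h mean of 399.5 RPKM and stood at 46.2, 35.02, 34.9 and 51.4 RPKM in the 24 h libraries, which overlapped the naive ones at 51.3, 58.1, 47.3 and 61.8 RPKM; its adjusted p of 0.0416 against naive rose to between 0.0601 and 0.104 without 24 h replicates 2 or 3 or naive replicates 1, 2 or 4. Of 7 clock genes 4 fell and 0 rose. Per2 had a mean of 5.18 ± 0.957 RPKM in naive, 20.99 RPKM at 2 h and 2.67 ± 0.315 RPKM at 24 h, and the hour of collection is not given in the labels.

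**Figure D4:**
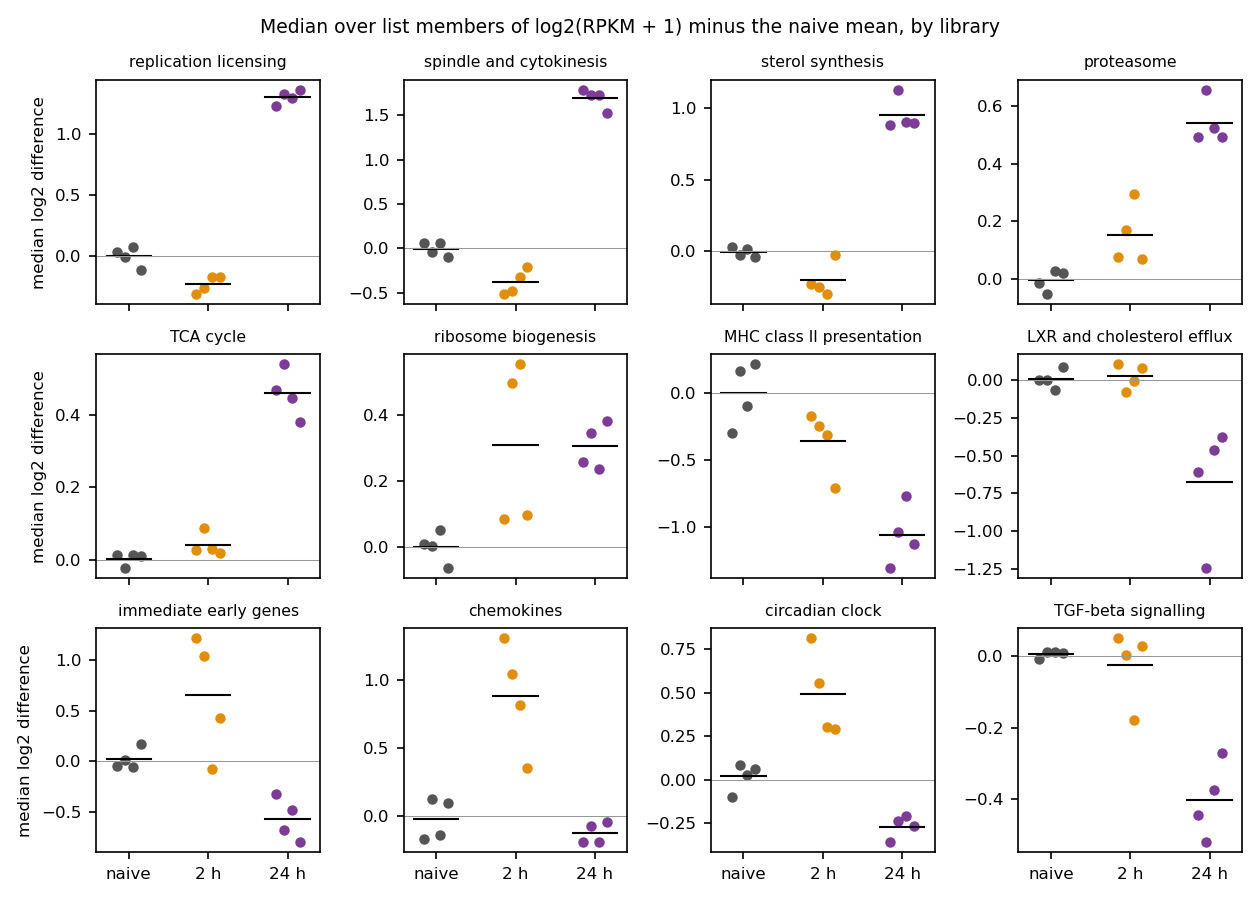
For 12 gene lists, the median over tested members of log2(RPKM + 1) minus the naive mean, 1 point per library, with the group mean as a line, for naive, 2 h and 24 h libraries. In the 4 lists of licensing, spindle, sterol synthesis and the tricarboxylic acid cycle the 24 h points lie above both other groups, and in the chemokine and circadian clock lists the 2 h points lie highest.

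Degradation and clean-up genes split. Of 27 lysosomal enzymes 13 rose and 6 fell. The protease Ctsh fell from 34.99 ± 1.05 to 24.01 ± 0.958 RPKM (adjusted p 2.19e-05; SD, n = 4 each). Of 24 autophagy genes 9 fell and 2 rose (4 without naive replicate 4). The cargo receptor Sqstm1 fell by 0.47 on the log2 scale and was at a mean of 77.5 RPKM at 2 h, above the naive mean of 55.3 RPKM. Of 12 engulfment genes 5 rose and 5 fell, with 2 or 3 rises left without 24 h replicates 1 or 4 or any 1 naive replicate. Pros1, a bridge between dying cells and the receptor Mertk, stood at 87.8, 94.2, 91.6 and 91.9 RPKM in naive and 42.5, 42.9, 47.7 and 47.7 RPKM in 24 h libraries, a log2 change of -1.002 ± 0.05 with an adjusted p of 1.42e-06. Mertk itself fell by 0.58, and Mfge8, another bridging protein, rose by 0.50.

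Of 18 cell death regulators 8 fell and 4 rose. The survival factor Mcl1 fell from 222 ± 3.997 to 143 ± 6.33 RPKM (adjusted p 6.49e-06; SD, n = 4 each). Of 15 lipid mediator genes 7 fell and 3 rose. Hpgd, which inactivates prostaglandins, stood at 2.12, 2.13, 2.18 and 3.14 RPKM in naive and 0.776, 0.644, 0.611 and 0.828 RPKM in 24 h libraries, a log2 change of -0.97 ± 0.10 with an adjusted p of 8.84e-05. Hpgd was tested only because of its naive level. Pla2g4a, which frees arachidonic acid, rose by 0.39 on the log2 scale. Of 12 matrix and coagulation genes 5 fell (3 without both replicates numbered 4) and 3 rose, 1 of the tested ones having passed the filter only through the 24 h libraries. The urokinase receptor Plaur stood at 253, 225, 252 and 260.2 RPKM in naive and 118, 125, 129 and 141 RPKM in 24 h libraries (log2 change -0.94 ± 0.07, adjusted p 7.38e-06), and the protease inhibitor Timp1 rose by 0.91 on the log2 scale.

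The 10 largest falls by the naming rule were those of Tppp, Tcim, Slpi, Tppp3, Hist1h2bc, Mamdc2, Cd83, Epcam, Klk8 and Ahnak. Slpi, a secreted inhibitor of neutrophil elastase, stood at 129, 153, 130.1 and 166 RPKM in naive and 29.5, 29.6, 21.4 and 42.9 RPKM in 24 h libraries, a log2 change of -2.23 ± 0.18 with an adjusted p of 1.81e-05. Its 2 h mean was 163 RPKM, near the naive level. Tppp and Tppp3 belong to a family that promotes the assembly of tubulin. Tppp3 stood at 85.6, 96.1, 87.95 and 77.1 RPKM in naive and 18.8, 23.4, 16.5 and 17.3 RPKM in 24 h libraries, a log2 change of -2.14 ± 0.11 with an adjusted p of 1.22e-06. Tppp stood at 9.01, 11.6, 7.71 and 9.02 RPKM in naive and 1.02, 1.44, 0.701 and 0.923 RPKM in 24 h libraries, a log2 change of -2.35 ± 0.13 with an adjusted p of 2.12e-06. At 2 h both were already below the naive level, at means of 43.99 and 2.42 RPKM. Ahnak, a very large scaffold protein, stood at 114, 114, 105 and 102 RPKM in naive and 28.6, 35.005, 29.9 and 37.5 RPKM in 24 h libraries, a log2 change of -1.71 ± 0.09 with an adjusted p of 1.32e-06. Hist1h2bc, an H2B histone gene of a cluster with near-identical copies, fell from 65.3 ± 7.43 to 15.9 ± 3.87 RPKM, and its reads may be shared with those copies.

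**Figure D5:**
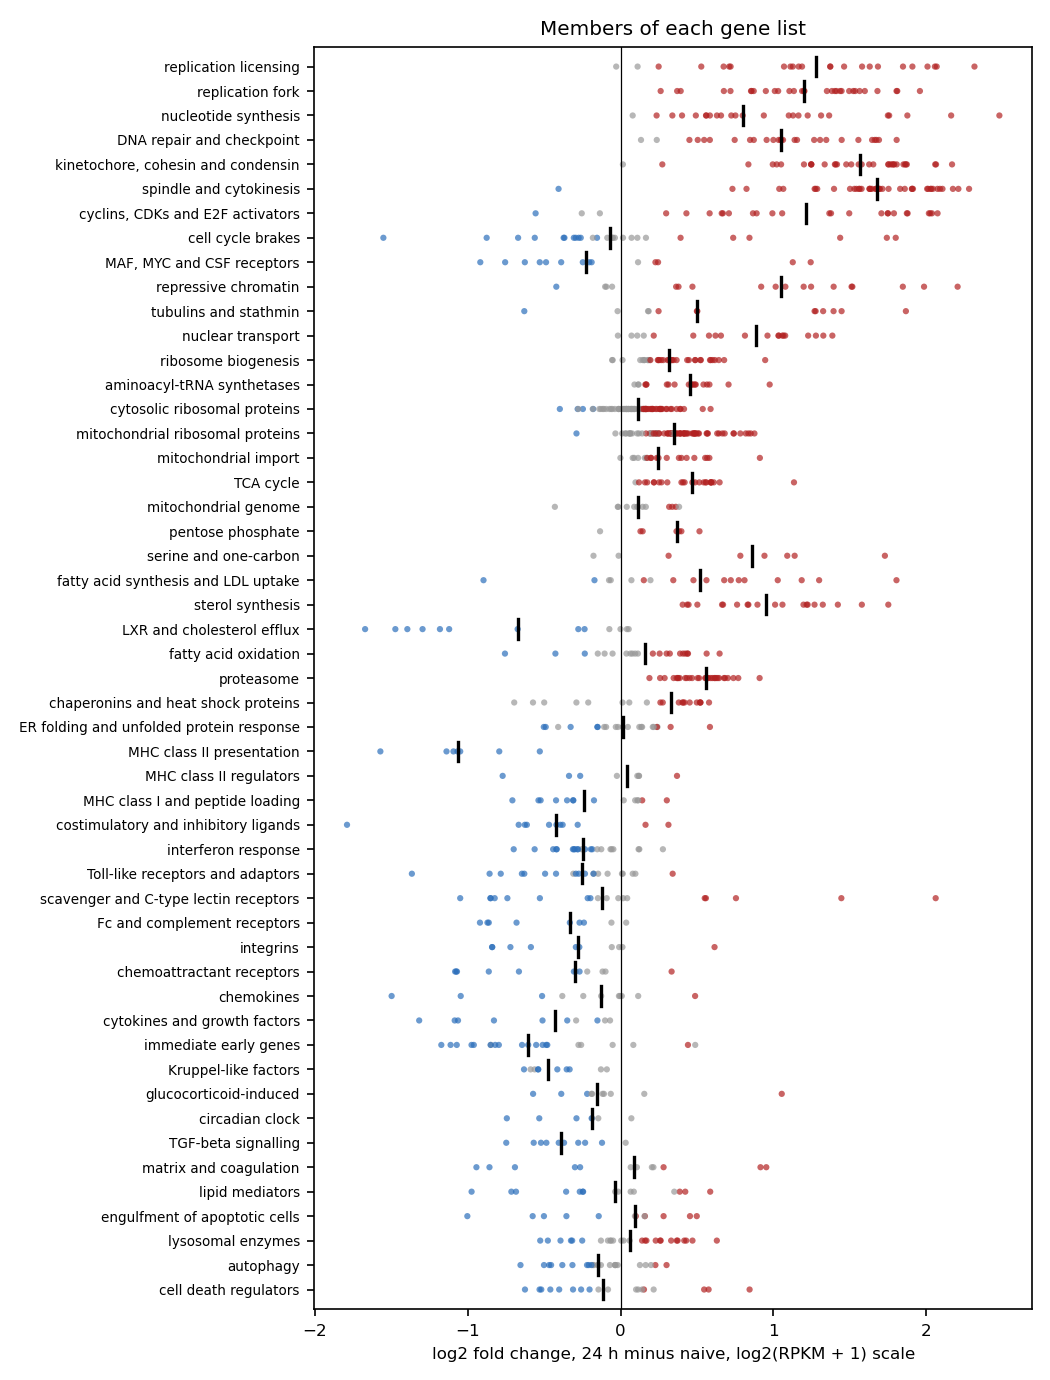
Log2 change at 24 h against naive of each tested member of the 51 gene lists that are not cell type markers, red where called higher, blue where called lower and grey where not called, with the median of each list as a black bar. The replication, mitosis, sterol synthesis and proteasome lists have medians right of 0 and the MHC class II presentation list has its median left of 0.

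Set against the 2 h libraries, the 24 h libraries had 3549 genes higher (32.4%) and 2278 lower (20.8%) of the same tested genes, 53.2% in all. The cell cycle and sterol lists stood above both other groups: 41 of 42 spindle genes and all 20 sterol synthesis genes were higher at 24 h than at 2 h. For the class II genes, 6 of 7 were lower at 24 h than at 2 h, with H2-DMb1 the exception (adjusted p 0.460). Ciita, with a 2 h mean of 1.48 RPKM, had an adjusted p of 0.333 for 24 h against 2 h. Some markers were low at both times after reperfusion: C1qa had a mean of 0.483 RPKM at 2 h and 0.549 RPKM at 24 h. Interferon response genes, of which 13 were below naive at 24 h, were 4 higher and 4 lower at 24 h than at 2 h.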

How the data were processed

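Expression was measured by RNA sequencing of polyA RNA in 12 libraries, 4 naive, 4 at 2 h and 4 at 24 h. Per the submitters' processing notes, bcl2fastq, TopHat2, HTSeq and the mm10 build were used; of the annotation, strand setting, gene lengths and tool versions, none is stated there or in the labels. The deposited values are RPKM, 1 column per library, computed by the authors. With strand unstated, reads of overlapping and antisense genes cannot be told apart. Ensembl identifiers were given symbols from GENCODE vM21, which matched 42462 of 43430.

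Whole reads per gene were recovered from the steps of the RPKM values for 24505 genes, 100% of those above 0, within 0.02 read; they gave the depths above. Levels were analysed as log2(RPKM + 1) for genes with at least 1 RPKM in at least 4 of the 8 libraries, with limma 3.58.1 (trended moderated test, two-sided, Benjamini-Hochberg adjustment over all 10949 tested genes, threshold 0.05) in R 4.3.3. The 24 h against 2 h contrast used all 12 libraries. On simulated data for the 24 h against naive comparison (10949 genes, 50 changed at each size), 36% of 1.5-fold, 96% of 2-fold and 100% of 4-fold changes were recovered, with 7 false calls. The simulation gave every gene the same fixed spread setting and drew the libraries independently. Changed genes were drawn only from those above a minimum naive level. In the data 52.4% of tested genes were called, far more than were changed there, so these rates need not hold for the data.

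The comparison, its 60 gene lists (1081 of 1245 symbols tested) and the tests were chosen with earlier results of these data known. Genes were named by rule: the 10 largest rises and 10 largest falls among called protein-coding genes (predicted and clone names left out) whose groups did not overlap and whose higher group averaged 5 RPKM or more, the 4 members with the lowest p in every list, all class II members, and marker genes. Btg1, Btg2, Ear6, Saa3 and H2-Ea-ps were named after their values were seen. Some genes taken by the rule are not reported here. Alternatives were pseudocounts 0.1 and 0.5, no filter and a filter at 5 RPKM, median-ratio and quantile scaling, all 12 libraries (or, against 2 h, the 2 groups alone), no variance trend, array weights, a replicate block, voom on recovered reads, leaving out each library and, added after seeing the data, protein-coding genes only and leaving out both replicates numbered 4. Same-numbered naive and 24 h libraries did not deviate together. No 2 libraries were identical.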

Additional observations from a re-analysis of the deposited data

Results flagged for a closer look

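Among the 150 genes named in the text, 16 of 300 groups of 4 libraries held 1 library far from the other 3 by Dixon's test at 95%, and chance flags about 1 group in 20. Naive replicate 4 was high for Csf1r (42.47 RPKM against 39.22 to 39.61), Csf3r (7.766 against 6.017 to 6.132), Ear2 (2011 against 1741 to 1757) and Hpgd (3.141 against 2.116 to 2.176), and low for Itgal (33.98 against 35.78 to 36.11) and Rrm2 (9.143 against 11.10 to 11.35). The 24 h replicate 2 was high for Creb1 (3.229 RPKM against 2.841 to 2.862), Ctsk (436.1 against 318.6 to 334.8), Cyp51 (35.25 against 29.26 to 29.92) and Lcn2 (2.060 against 1.302 to 1.380), and low for Acvrl1 (1.756 against 2.347 to 2.407) and Mamdc2 (1.907 against 3.371 to 3.554). The 24 h replicate 4 was high for Il1b (2.711 RPKM against 1.256 to 1.342) and low for Shcbp1 (24.04 against 27.21 to 27.35). Idh3a was low in 24 h replicate 1 (36.77 RPKM against 40.39 to 41.02), and H2-DMb2 was high in naive replicate 3 (6.718 RPKM against 5.198 to 5.365).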

How the results depend on the processing

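Of the 141 genes named in the text that passed the test, 136 passed it in every alternative that tested them, and Cxcl2, Fabp4, Igkc, Mt2 and Rfx1 were lost in at least 1. Chil3, which did not pass, was lower after quantile normalisation (log2 change -0.39). With the filter at 5 RPKM, which tests fewer genes, 1704 genes were lower. With a pseudocount of 0.1, 272 genes were at least 2-fold lower; voom on recovered reads called 3126 genes higher and 2797 lower, of which 860 changed by at least 2-fold and 310 fell at least 2-fold. Leaving out any 1 library gave 5197 to 5591 changed genes (2814 to 3011 higher, 2340 to 2580 lower), 508 to 579 by at least 2-fold (377 to 416 higher, 131 to 183 lower), 28 to 31 of the 60 lists with a median above 0 (30 with all libraries), 248 to 255 of the genes named by rule passing, and 5305 to 5824 genes changed at 24 h against 2 h. With the replicate number as a block, 2988 genes were higher and 2571 lower (5559 in all), and 5725 changed against 2 h; same-numbered libraries had deviations correlated between -0.0447 and 0.0748, and 3 of 8 libraries correlated best with their own number. Median-ratio scaling gave 2952 higher and 2781 lower, quantile normalisation 2731 and 3072. Of 2520 list counts under alternatives 137 moved by over 1.5 times, 21 of them with the filter at 5 RPKM. That filter tests fewer genes; for the others the cause was not tested. Every naive library was shallower than every 24 h library, and 3 reads on a gene of 1 kilobase are 0.491 RPKM in the shallowest and 0.250 RPKM in the deepest, so levels below these rest on fewer than 3 reads at that length.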

Other observations

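By annotated type, 30.8% of 9471 protein-coding genes were higher and 24.8% lower at 24 h. The shares differed for other types: of 479 antisense genes 15.2% were higher and 23.2% lower, and of 189 lincRNA genes 13.2% were higher and 22.8% lower. Strand use in counting is not given, so antisense values may hold reads of the sense gene.

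The eosinophil-associated ribonuclease genes, which are near-identical copies, did not move together. Ear1 stood at 299.9, 353, 322 and 354 RPKM in naive and 152, 88.2, 189 and 206 RPKM in 24 h libraries, and Ear2 fell by 0.93 on the log2 scale. Ear6 stood at 1.77, 2.43, 2.41 and 2.55 RPKM in naive and 13.6, 13.96, 9.87 and 17.7 RPKM in 24 h libraries, a log2 change of 2.15 ± 0.15 with an adjusted p of 8.01e-06. Reads shared among the copies make each value uncertain.

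Acute-phase genes other than Lrg1 appeared at low levels. Lcn2, an iron-scavenging lipocalin, stood at 0, 0.0908, 0.0241 and 0.0884 RPKM in naive and 1.37, 2.06, 1.38 and 1.30 RPKM in 24 h libraries (adjusted p 2.27e-05). Lcn2 was tested only because of its 24 h level. Saa3, a serum amyloid A gene, was not tested: it had 0 reads in all 4 naive libraries and 16, 8, 3 and 5 in 24 h replicates 1 to 4, so its 24 h mean of 1.38 ± 0.82 RPKM (SD, n = 4) was at least 7.41-fold higher than the level of 3 reads over the naive group, 0.186 RPKM. S100a9 stood at 1.54, 0, 0.778 and 0.476 RPKM in naive and 0, 0.268, 0.916 and 0.637 RPKM in 24 h libraries, while S100a8 stood at 12.8, 8.04, 11.9 and 7.93 and 28.3, 29.2, 27.8 and 33.8 RPKM.

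H2-Ea-ps, annotated as the pseudogene of the class II E alpha chain, had 0, 0.184, 0 and 0 RPKM in naive, 27.1, 23.4, 22.6 and 19.3 RPKM in 2 h and 1.70, 1.48, 5.20 and 5.11 RPKM in 24 h replicates 1 to 4. It was near 0 in every naive library, highest at 2 h and intermediate at 24 h, and it was higher in 24 h replicates 3 and 4 than in 1 and 2. All 12 libraries have the same genotype label, donor and recipient strains are not stated, and whether this signal came from cells of another strain was not tested.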
